A study of Mus musculus with 9 samples.

Results

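Aldehyde dehydrogenases and aldo-keto reductases remove the reactive aldehydes that are left when membrane lipids are oxidised. Their mRNA levels were examined here in HT22 cells, an immortalised line derived from mouse hippocampus and used as a model of neurons. The set holds 9 genes, chosen by name from the 29756 entries of the deposited expression table: the dehydrogenases Aldh2, Aldh1b1, Aldh3a1, Aldh3a2, Aldh7a1 and Aldh9a1, and the reductases Akr1a1, Akr1b3 and Akr1b8. The rule takes them by name and uses no measured value, but they were picked with earlier results of these data known. All 9 had an entry, and 8 passed the filter on low values (at least 1 FPKM in at least 3 of the 9 libraries; FPKM is a fragment count scaled to transcript length and library size). Aldh1b1 did not pass.

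The libraries fall into an intervention group, an experimental group and a control group with 3 libraries each, and all are HT22 cells. The study's title names hemin, the oxidised form of heme, and a micelle called PPP8, but which group was given either one is not stated, and neither is a dose or a time. The groups therefore keep their labelled names, and none was assigned a treatment from its data. Whether libraries of a group came from separate cultures is not stated either, so each p-value measures only the spread between these libraries, which may be technical.

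Peroxidised fatty acids break down to hydroxynonenal, malondialdehyde and other aldehydes that bind to proteins and DNA. Aldehyde dehydrogenases oxidise them to carboxylic acids with NAD or NADP, and aldo-keto reductases reduce them to alcohols with NADPH. Glutathione transferases, alcohol dehydrogenases and carbonyl reductases handle the same or related compounds. Neurons are rich in polyunsaturated lipids, and heme iron released from blood is known to promote lipid peroxidation.

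FPKM summed to 316912 to 339943 per library, and 11154 to 11732 genes reached 1 FPKM. FPKM carries no read number, so sequencing depth is unknown. Of 14 neuron markers, 3 passed the filter (Tubb3, Dlg4 and Camk2a), while Rbfox3 and Map2, which mark mature neurons, stayed at or below 0.16 and 0.22 FPKM. The 14 markers summed to 9.83 to 12.38 FPKM in intervention libraries, 13.78 to 14.06 in experimental libraries and 13.21 to 18.31 in control libraries. The sum of 5 astrocyte markers was 2.24 to 3.83, 2.63 to 2.85 and 5.64 to 6.67 FPKM in intervention, experimental and control libraries, mostly from Slc1a3. The sum of 6 microglia and blood markers was 1.52 to 3.12, 1.05 to 1.83 and 10.39 to 11.49 FPKM in the same order, mostly from Tmem119. Tmem119 averaged 1.63, 0.93 and 10.3 FPKM in intervention, experimental and control libraries. Of the other microglia and blood markers, Aif1, Cx3cr1, P2ry12 and Ptprc did not exceed 0.17 FPKM and Hba-a1 did not exceed 0.94. The astrocyte marker Gfap did not exceed 0.47 FPKM. No oligodendrocyte or endothelial marker passed the filter. The part of these differences in the results was not tested.

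Several of these enzymes are close relatives, and their shared sequence bears on how far each level can be read. Aldh3a1 (chr11:61207537-61218421, plus strand, 11 exons) and Aldh3a2 (chr11:61223417-61267464, minus strand, 10 exons) are neighbours that converge on mouse chromosome 11 (mm10, GENCODE M21). Their coding sequences were 68.2% identical over 1348 aligned bases, with no identical run longer than 20 bases. The most alike stretch of 60 coding bases, in exon 5 of Aldh3a1 and exon 4 of Aldh3a2, differed at 8 positions, written in capitals. It is shown because these neighbours differed in opposite directions between experimental and control cells.
Aldh3a1, chr11:61214664-61214723, plus strand: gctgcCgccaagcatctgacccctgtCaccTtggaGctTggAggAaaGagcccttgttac
Aldh3a2, chr11:61262254-61262313, minus strand: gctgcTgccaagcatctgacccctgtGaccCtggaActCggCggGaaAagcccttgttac

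Akr1b3 (chr6:34302434-34317478, minus strand, 10 exons) and Akr1b8 (chr6:34354119-34368463, plus strand, 10 exons) lie near each other on chromosome 6 and were 72.1% identical in coding sequence. Akr1b8 and its neighbour Akr1b10 were 85.4% identical, with an identical run of 80 bases. Akr1b3 also has processed pseudogenes, which are intronless copies of its mRNA. Gm12138 on chromosome 11 differed from the Akr1b3 coding sequence at 9 of 948 bases, and Gm6736 on chromosome 12 differed at 5 of 948. The 60 coding bases at which Akr1b3 and Gm12138 differ most hold 3 differences, in capitals. They are shown as the stretch where these sequences are easiest to tell apart. Reads from stretches without a difference cannot be placed with certainty.
Akr1b3, chr6:34312649-34312708, minus strand, exon 2: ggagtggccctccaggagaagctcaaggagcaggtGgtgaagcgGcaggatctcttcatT
Gm12138, chr11:40673632-40673691, minus strand: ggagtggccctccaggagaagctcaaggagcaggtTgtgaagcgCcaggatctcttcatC

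From the RefSeq promoter table (GRCm38.p6), the promoters of 5 of the 9 genes were searched and those of 4 were not. The 5 searched were Aldh9a1, Aldh1b1, Akr1a1, Akr1b8 and Aldh3a2. Their 250 bases before the transcription start were searched on both strands for 6 motifs, spelled here with N for any base. They were the antioxidant response element core TGACNNNGC, the AP-1 site TGANTCA, the cyclic AMP response element TGACGTCA, the C/EBP-ATF element TGATGNAA, the heat shock element GAANNTTC and the E-box CACGTG. Among 32851 promoters of the table, 10.2%, 6.75%, 1.55%, 3.45%, 6.69% and 6.02% held them, in that order. Aldh9a1 held the antioxidant response element core from -87 to -79, in capitals below, and Aldh3a2 held the E-box from -30 to -25. The other 3 held none of the 6. The Aldh9a1 promoter is shown as the only one of the 5 with the core. A match in letters is a description and not a measured binding site.
Aldh9a1, chr1:167349741-167349990, plus strand: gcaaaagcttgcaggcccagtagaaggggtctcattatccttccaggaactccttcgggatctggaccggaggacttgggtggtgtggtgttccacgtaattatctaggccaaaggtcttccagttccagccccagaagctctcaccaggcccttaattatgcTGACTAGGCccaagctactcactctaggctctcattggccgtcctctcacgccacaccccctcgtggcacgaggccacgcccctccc

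In experimental cells, Aldh3a1 and Akr1b3 mRNA stood far above the control level, Aldh2 was modestly higher, and Aldh7a1, Aldh9a1, Aldh3a2 and Akr1b8 were lower. Of the 8 tested genes, 3 were called higher and 4 lower (limma on log2(FPKM + 1), adjusted p under 0.05), against 23.5% of all 11974 tested entries called higher and 50.5% called lower, or 74% in all. A count of 7 of 8 is near that background, so the sizes and directions below carry the description. Aldh3a1, counted among the 3 called higher, passed the filter through the experimental and intervention libraries alone. The groups did not overlap for 7 of the 8 genes, 3 with experimental above and 4 with experimental below, against 24.7% and 51.5% of all tested entries, or 76.2% in all. The median log2 difference was -0.07 over the 8 genes and -0.21 over all tested entries. In bulk RNA, fewer cells of a type and less RNA per cell cannot be told apart.

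Aldh2 (chr5:121566027-121593824, minus strand, 13 exons) encodes the mitochondrial dehydrogenase that clears acetaldehyde and also oxidises hydroxynonenal. It had 27.0, 26.1 and 27.3 FPKM in intervention libraries, 25.3, 27.7 and 25.7 in experimental libraries and 22.3, 21.2 and 23.4 in control libraries. Every intervention and experimental library lay above every control library, and the intervention and experimental values overlapped. Aldh2 was higher in experimental than in control cells by 0.22 on the log2 scale (SE 0.05, limma adjusted p = 0.00341), a ratio of means of 1.17. It was higher in intervention than in control cells by 0.26 (SE 0.05, limma adjusted p = 0.00185). Between intervention and experimental cells the difference of 0.03 missed the threshold (95% interval -0.09 to 0.15, limma adjusted p = 0.684). Aldh1b1, its mitochondrial relative (chr4:45799022-45804604, plus strand), was listed at 0.03 FPKM in intervention library 2 and at 0 in the other 8 libraries.

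Aldh3a1 encodes a cytosolic dehydrogenase that is abundant in the cornea, where it protects against light-induced oxidative stress. It had 11.7, 9.65 and 9.09 FPKM in intervention libraries, 8.11, 8.85 and 8.19 in experimental libraries and 0.79, 0.61 and 0.87 in control libraries. The 3 groups did not overlap, and no control library reached 1 FPKM, so the gene passed the filter through the intervention and experimental libraries. Its calls and ranks against control cells are therefore tied to the filter and are given as a description. With no filter on low values, the limma adjusted p was 1.54e-06 for experimental against control and 1.57e-06 for intervention against control. It averaged 8.38 ± 0.41 FPKM in experimental cells and 0.757 ± 0.133 in control cells (SD, n = 3 each), a ratio of 11.1. The log2 difference was 2.42 (SE 0.09, limma adjusted p = 3.68e-08), the 28th highest of the 11974 entries. Against control cells, intervention cells averaged 10.2 ± 1.39 FPKM, a ratio of 13.4 and a log2 difference of 2.66 (SE 0.09, limma adjusted p = 3.48e-08), the 17th highest. Because 1 is added before the log, these log2 differences understate the ratio. All 3 intervention libraries also lay above all 3 experimental libraries, but the difference of 0.24 missed the threshold (95% interval 0.04 to 0.45, limma adjusted p = 0.0871).

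Aldh3a2 encodes the fatty aldehyde dehydrogenase of the endoplasmic reticulum, which is defective in human Sjögren-Larsson syndrome. It had 11.3, 10.5 and 11.6 FPKM in intervention libraries, 9.43, 10.03 and 8.95 in experimental libraries and 13.1, 12.5 and 11.7 in control libraries. The experimental libraries were the lowest and the control libraries the highest, with no overlap. Aldh3a2 was lower in experimental than in control cells by 0.36 on the log2 scale (log2 difference -0.36, SE 0.06, limma adjusted p = 0.000402), the opposite direction to its neighbour Aldh3a1. With median-ratio scaling that difference was -0.13 and missed the threshold (limma adjusted p = 0.0579). Aldh3a2 was higher in intervention than in experimental cells by 0.21 (SE 0.06, limma adjusted p = 0.0412), a call lost in 12 of 18 alternatives (highest adjusted p 0.186). Intervention against control gave -0.15 (95% interval -0.29 to -0.01, limma adjusted p = 0.0588), which passed with values scaled to TPM (-0.23, limma adjusted p = 0.0105) and without control replicate 3 (limma adjusted p = 0.0351).

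Aldh7a1, known as antiquitin, oxidises an intermediate of lysine breakdown and is also active on lipid aldehydes. It had 4.57, 4.51 and 4.26 FPKM in intervention libraries, 3.76, 3.88 and 3.86 in experimental libraries and 6.52, 6.44 and 6.56 in control libraries. The groups were fully separate and the replicates differed little. Aldh7a1 was lower in experimental than in control cells (log2 difference -0.64, SE 0.05, limma adjusted p = 1.86e-06; ratio 0.589) and lower in intervention than in control cells (-0.46, SE 0.05, limma adjusted p = 2.61e-05). It was higher in intervention than in experimental cells by 0.17 (SE 0.05, limma adjusted p = 0.0422), a call lost in 14 of 17 alternatives (highest adjusted p 0.538). Aldh7a1 overlaps Phax on the opposite strand, and the use of strand in counting is not given in the sources used here. Phax averaged 16.7 ± 0.70 FPKM in intervention cells, 15.02 ± 0.47 in experimental cells and 16.8 ± 0.94 in control cells (SD, n = 3 each). If strand was not used, reads of the 2 genes cannot be told apart where they overlap.

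Aldh9a1 (chr1:167349991-167368532, plus strand, 11 exons) encodes a cytosolic enzyme that makes a precursor of carnitine and oxidises aminoaldehydes. It had 22.03, 20.3 and 21.2 FPKM in intervention libraries, 18.4, 19.3 and 17.7 in experimental libraries and 27.1, 29.1 and 28.3 in control libraries. The order was the same as for Aldh7a1, with no overlap between groups. Aldh9a1 was lower in experimental than in control cells (log2 difference -0.58, SE 0.05, limma adjusted p = 4.08e-06; ratio 0.655) and in intervention than in control cells (-0.39, SE 0.05, limma adjusted p = 9.66e-05). It was higher in intervention than in experimental cells by 0.19 (SE 0.05, limma adjusted p = 0.0351), a call lost in 9 of 18 alternatives (highest adjusted p 0.230).

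Akr1a1 (chr4:116636510-116651680, minus strand, 9 exons) encodes aldehyde reductase, which in mice also serves ascorbate synthesis, and it had the highest FPKM of the 9 genes in every library. It had 172, 178 and 179 FPKM in intervention libraries, 166, 176 and 169 in experimental libraries and 154, 166 and 157 in control libraries. The intervention libraries lay above the control libraries, while the experimental libraries overlapped both other groups. Akr1a1 was higher in intervention than in control cells by 0.15 (SE 0.05, limma adjusted p = 0.0179). That call was lost with TPM scaling, with quantile normalization and without intervention replicate 3 or control replicate 1, at limma adjusted p of 0.194, 0.459, 0.0596 and 0.0671. Experimental against control gave 0.10 (95% interval -0.01 to 0.20, limma adjusted p = 0.0781). It passed with median-ratio scaling (0.34, limma adjusted p = 0.000139) and without control replicate 2 (limma adjusted p = 0.0269). Intervention against experimental gave 0.05 (95% interval -0.06 to 0.15, limma adjusted p = 0.470). The place of Akr1a1 above Akr1b3 depends on how reads were shared with the near-identical copies of Akr1b3. Summed with these copies, Akr1b3 averaged 186, 199.6 and 95.9 FPKM in intervention, experimental and control cells. Akr1a1 averaged 176, 170 and 159 FPKM in the same order.

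Akr1b3 encodes aldose reductase, which turns glucose into sorbitol and reduces hydroxynonenal and its glutathione conjugate. It had 74.9, 70.4 and 75.0 FPKM in intervention libraries, 83.4, 80.8 and 79.5 in experimental libraries and 36.5, 38.3 and 38.1 in control libraries. The experimental libraries were the highest, the intervention libraries lay just below them, and the control libraries were far lower. Akr1b3 was higher in experimental than in control cells (log2 difference 1.09, SE 0.05, limma adjusted p = 5.08e-08; ratio 2.16) and in intervention than in control cells (0.95, SE 0.05, limma adjusted p = 1.73e-07; ratio 1.95). Against experimental cells, intervention cells gave -0.14 (95% interval -0.24 to -0.04, limma adjusted p = 0.0507). The difference passed the threshold in 5 of 19 alternatives, among them a pseudocount of 0.1 (limma adjusted p = 0.0497) and median-ratio scaling (limma adjusted p = 0.0215). As deposited, Akr1b3 was the only one of the 8 tested genes whose mean was lower in intervention than in experimental cells; with median-ratio scaling Aldh2 and Akr1a1 were also on that side, and with quantile normalization Aldh2 was.

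The near-identical copies of Akr1b3 also had substantial FPKM, with the control libraries lowest in each. Gm12138 averaged 51.6 ± 3.04 FPKM in intervention cells, 54.7 ± 2.39 in experimental cells and 27.2 ± 1.70 in control cells (SD, n = 3 each). Gm6736 averaged 46.3 ± 4.14, 48.2 ± 2.44 and 23.7 ± 2.48 FPKM in intervention, experimental and control cells (SD, n = 3 each). A further entry, Gm38056, matched the Akr1b3 transcript at 99.7% over 1352 bases and reached at most 16.2 FPKM. Summed with these 3 entries, Akr1b3 gave 186 ± 10.4 FPKM in intervention cells, 199.6 ± 5.39 in experimental cells and 95.9 ± 4.73 in control cells (SD, n = 3 each), of which its own entry was 37.8% to 41.4%. On the sum, an alternative added after the data were seen, the log2 difference was 1.05 for experimental against control (limma adjusted p = 1.66e-07) and 0.94 for intervention against control (limma adjusted p = 5.46e-07). For intervention against experimental it was -0.11 (limma adjusted p = 0.190). The direction against control cells was thus the same, and the level of Akr1b3 itself is uncertain.

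**Figure D1:**
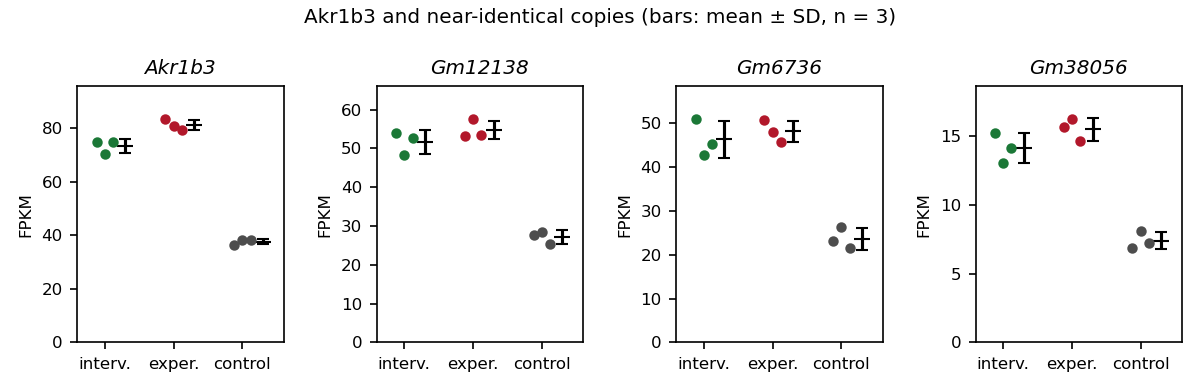
FPKM of Akr1b3 and of 3 entries nearly identical to it in each library, by group (intervention, experimental, control). Points are libraries and bars give the mean ± SD (n = 3); in each entry the intervention and experimental libraries lie above the control libraries, with control values of 36.5 to 38.3 FPKM for Akr1b3.

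Akr1b8 encodes an aldose reductase-like protein that acts on lipid aldehydes and retinal. It had 62.1, 62.5 and 66.4 FPKM in intervention libraries, 55.8, 55.3 and 52.1 in experimental libraries and 63.7, 64.0 and 64.3 in control libraries. The experimental libraries were lowest, and the control values lay within the intervention range. Akr1b8 was lower in experimental than in control cells (log2 difference -0.23, SE 0.05, limma adjusted p = 0.00103), close to the median of -0.21 over all tested entries. With median-ratio scaling the difference was 0.0095 (limma adjusted p = 0.876). Akr1b8 was higher in intervention than in experimental cells by 0.22 (SE 0.05, limma adjusted p = 0.0172), a call lost in 6 of 18 alternatives (highest adjusted p 0.127). Intervention against control gave -0.01 (95% interval -0.11 to 0.09, limma adjusted p = 0.877), which became 0.13 with median-ratio scaling (limma adjusted p = 0.0385).

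**Figure D2:**
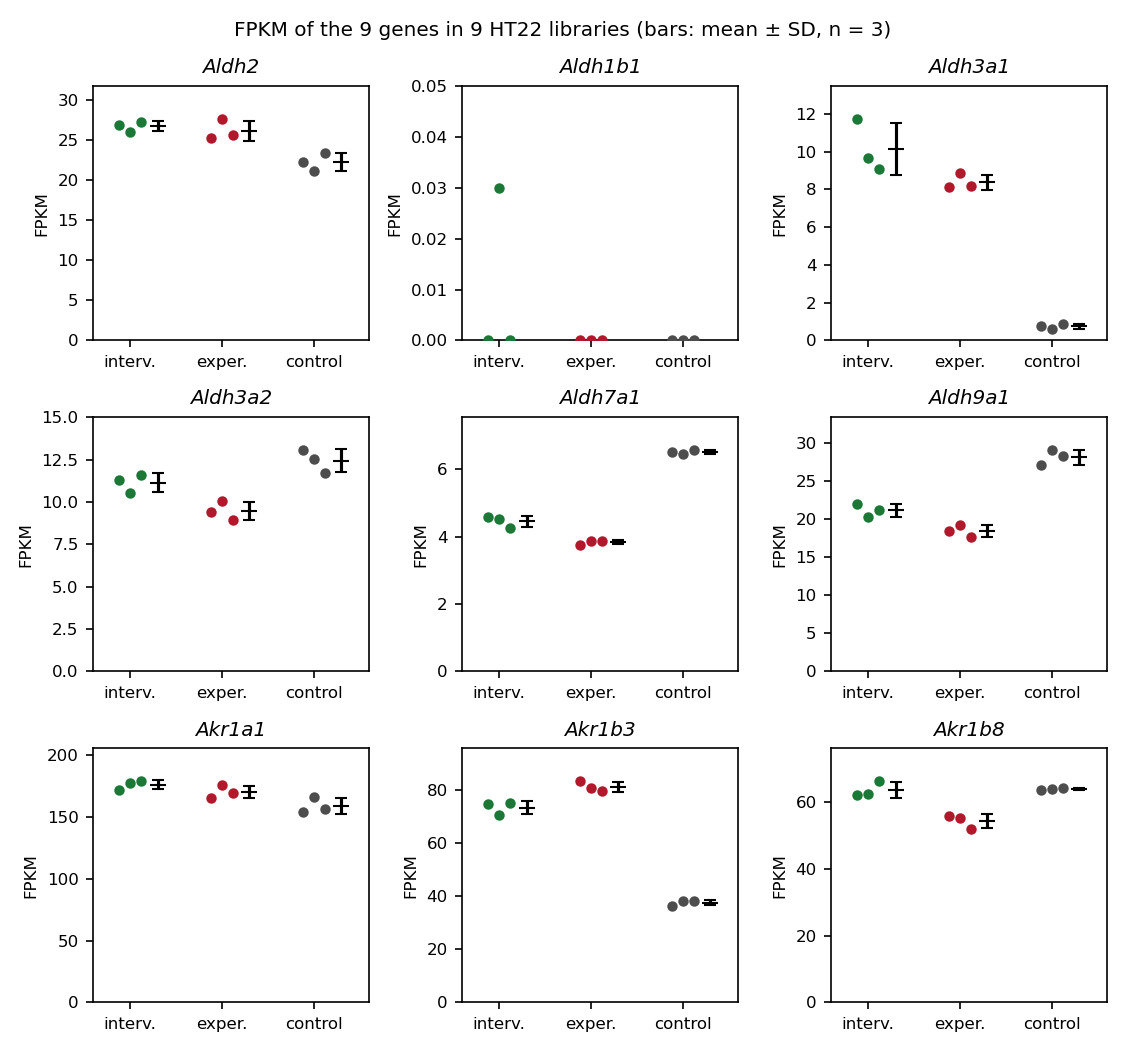
FPKM of the 9 genes in each library on a separate axis per gene, by group (intervention, experimental, control). Points are libraries, and bars give the mean ± SD for the 8 genes that passed the filter; Aldh3a1 and Akr1b3 stand above control in all 6 intervention and experimental libraries, while Aldh7a1 and Aldh9a1 stand below it in all 6.

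Intervention cells were next compared with experimental cells. Aldh3a2, Aldh7a1, Aldh9a1 and Akr1b8, the 4 genes that were lower in experimental than in control cells, were each higher in intervention cells, by 0.17 to 0.22 on the log2 scale. These comparisons share the experimental libraries. Of the 8 tested genes, 4 were called higher and 0 lower by limma. Of all tested entries, 15.9% were called higher and 3.6% lower, or 19.5% in all. An unadjusted limma p under 0.05 was reached by 6 of the 8 genes, against 4550 of the 11974 tested entries. The median log2 difference was 0.18 over the 8 genes and 0.10 over all tested entries. Groups did not overlap for 6 of the 8, with intervention above for 5 and below for 1 (Akr1b3), against 33.7% and 8.79% of all tested entries, or 42.5% in all. These calls depend on single libraries and on scaling. Limma called 0 of the 8 genes without experimental replicate 1, experimental replicate 3, intervention replicate 1 or intervention replicate 3. In these fits 5, 5, 5 and 6 of the 8 had an unadjusted p under 0.05. Of the 11974 tested entries, 3355, 3375, 3161 and 3904 did. With median-ratio scaling the 1 call left was Akr1b3, lower in intervention cells, and with quantile normalization limma called 0. With quantile normalization 3 of the 8 genes had an unadjusted p under 0.05, against 3415 of the 11974 tested entries.

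Intervention cells were then compared with control cells. Aldh3a1, Akr1b3, Aldh2 and Akr1a1 were higher and Aldh7a1 and Aldh9a1 lower, while Akr1b8 and Aldh3a2 missed the threshold. That is 4 higher and 2 lower of 8 tested genes, against 24.1% of all tested entries called higher and 41.1% called lower, or 65.3% in all. Aldh3a1, among the 4, passed the filter through the experimental and intervention libraries alone. The groups did not overlap for 7 of the 8, with intervention above for 4 and below for 3, against 25.8% and 42.9% of all tested entries, or 68.7% in all. The median log2 difference was 0.07 over the 8 genes and -0.10 over all tested entries.

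**Figure D3:**
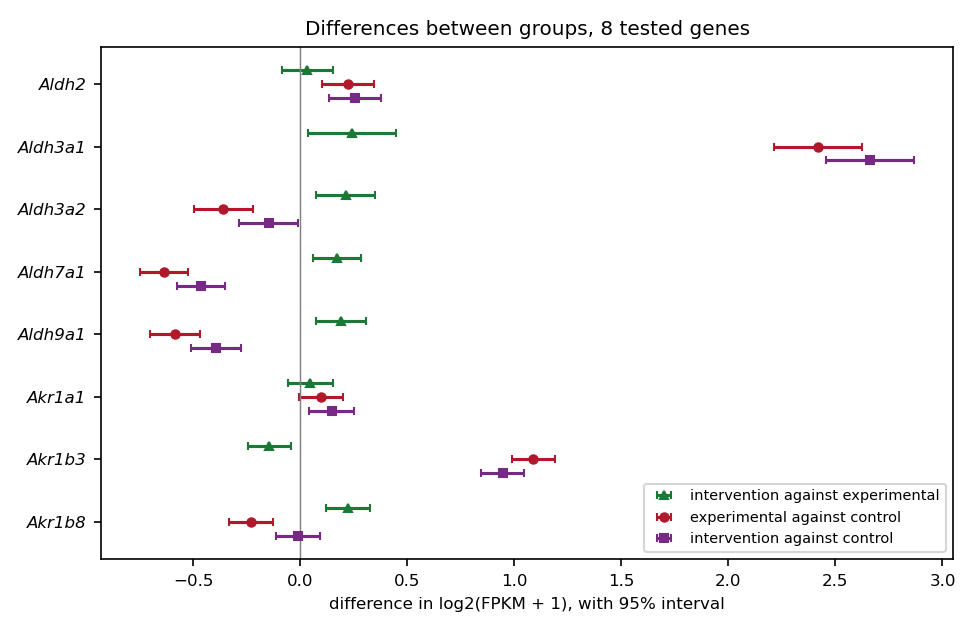
Difference in log2(FPKM + 1) of each tested gene in the 3 comparisons, with 95% intervals from limma. Aldh3a1 stands at 2.42 and 2.66 against control and Akr1b3 at 1.09 and 0.95, and all intervention against experimental differences lie between -0.14 and 0.24.

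Added together, the 9 genes gave 387 ± 6.18 FPKM in intervention cells, 372 ± 8.34 in experimental cells and 331 ± 6.998 in control cells (SD, n = 3 each). The 3 reductases held 313 ± 6.24, 306 ± 5.46 and 261 ± 7.06 FPKM of this in intervention, experimental and control cells, most of it Akr1a1. The 6 dehydrogenases held 73.7 ± 2.76, 66.3 ± 2.93 and 70.1 ± 0.60 FPKM in the same order. The dehydrogenases' share of the sum was 19.1% ± 0.72 in intervention cells, 17.8% ± 0.39 in experimental cells and 21.2% ± 0.49 in control cells. Akr1b3 made up 19.0% of the sum in intervention cells, 21.8% in experimental cells and 11.4% in control cells. Aldh3a1 made up 2.63%, 2.25% and 0.229%. FPKM is scaled to transcript length, so these shares compare levels per length. The Akr1b3 part, and with it these sums and shares, depends on how reads were shared with its copies. The sums were not tested.

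**Figure D4:**
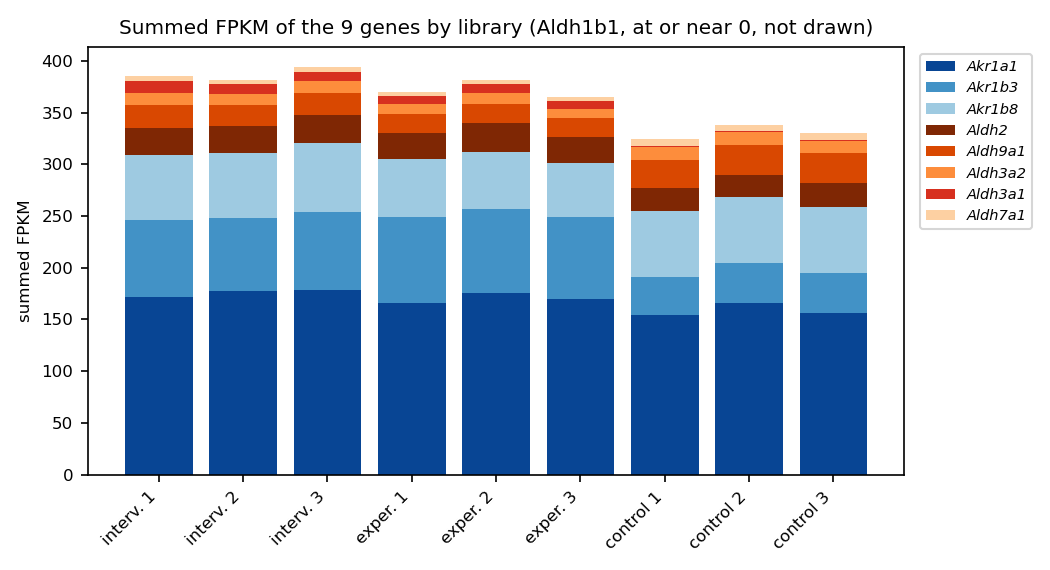
Summed FPKM of the genes in each of the 9 libraries (intervention, experimental, control), stacked by gene; Aldh1b1, at or near 0, is not drawn. The sums average 387, 372 and 331 FPKM in the 3 groups, and Akr1a1 is the largest part in every library as deposited. The size of the Akr1b3 part depends on how reads were shared with its copies.

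By mean FPKM, the order in intervention and experimental cells was Akr1a1, Akr1b3, Akr1b8, Aldh2, Aldh9a1, Aldh3a2, Aldh3a1, Aldh7a1 and Aldh1b1. In control cells Akr1b8 stood above Akr1b3, Aldh9a1 above Aldh2, and Aldh7a1 above Aldh3a1. The libraries of neighbours in these orders did not overlap, except for Aldh3a2 and Aldh3a1 in intervention cells. The place of Akr1b3 depends on how reads were shared with its copies.

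Likeness of profile was measured as the root mean square difference between log2(FPKM + 1) profiles over the 9 libraries, each centred on its mean, so that smaller is more alike. Among the tested members, Aldh7a1 and Aldh9a1 were the most alike pair at 0.0575, followed by Aldh3a2 and Akr1b8 at 0.0807 and Aldh2 and Akr1a1 at 0.0825. Aldh3a1 and Aldh7a1 were the least alike at 1.46. Nearest profiles were sought across all tested entries except predicted genes named Gm followed by digits, which include the Akr1b3 copies, and symbols ending in Rik. The nearest profiles to Aldh3a1 were those of Pgd at 0.152 and Esd at 0.176. Pgd encodes an NADPH-producing enzyme of the pentose phosphate pathway, and Esd an esterase that completes glutathione-dependent formaldehyde removal. The nearest to Akr1b3 were Rcc1 at 0.0484 and Pvt1 at 0.0499. For Aldh9a1 they were Rnf13 at 0.0183 and Nadk at 0.023, and for Aldh7a1 Cast at 0.0283 and Pcif1 at 0.0332. For Akr1b8 they were Gps1 at 0.0317 and Slc39a11 at 0.0368, and for Aldh3a2 Zfp777 at 0.0325 and Dda1 at 0.0358. For Aldh2 they were Supt5 at 0.0227 and Rcc2 at 0.0319, and for Akr1a1 Zmpste24 at 0.0307 and Nucb1 at 0.032.

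Other enzymes of aldehyde and carbonyl metabolism were read from a list of 55 genes, of which 52 had an entry and 34 passed the filter. In experimental against control cells 8 of the 34 were called higher and 23 lower, against 23.5% and 50.5% of all tested entries, so the count called higher is near the background. Aox1, among the 8, had at most 0.26 FPKM in control libraries and passed the filter through the intervention and experimental libraries alone. Aldh3b1, among the 23, passed through the control libraries alone. The median log2 difference was -0.45, against -0.21 over all tested entries. In intervention against control cells 8 were called higher and 14 lower, against 24.1% and 41.1% of all tested entries, both near the background, with a median of -0.20 against -0.10. Gsta4, the glutathione transferase that conjugates hydroxynonenal, averaged 266 ± 20.5 FPKM in intervention cells, 219.9 ± 12.2 in experimental cells and 27.5 ± 2.84 in control cells (SD, n = 3 each). Its log2 difference was 2.96 for experimental against control (limma adjusted p = 7.76e-09), larger than that of Aldh3a1. Esd was higher in experimental than in control cells by 2.17 (limma adjusted p = 1.14e-09), Cbr3, a carbonyl reductase, by 1.55 (limma adjusted p = 9.78e-08), and Adh7, an alcohol and retinol dehydrogenase, by 1.41 (limma adjusted p = 2.67e-08). The same 4 genes had the largest differences of intervention against control, at 3.23, 2.36, 1.70 and 1.44 in that order.

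Among 29 further aldehyde dehydrogenases and aldo-keto reductases of the list, 26 had an entry and 13 passed the filter. The other 13 with an entry stayed at or below 1.06 FPKM. In experimental against control cells 2 of the 13 were called higher and 10 lower, against 23.5% and 50.5% of all tested entries. Aldh18a1, which makes a proline precursor, averaged 88.0 ± 0.69 FPKM in experimental cells and 51.9 ± 0.83 in control cells (SD, n = 3 each; log2 difference 0.75, limma adjusted p = 1.36e-07). Aldh1l2, a mitochondrial folate enzyme, averaged 64.7 ± 1.29 and 48.1 ± 1.63 FPKM in experimental and control cells (SD, n = 3 each; 0.42, limma adjusted p = 8.91e-06). Neither is known mainly for clearing lipid aldehydes.

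The other called members of these families were lower in experimental than in control cells. They were Aldh4a1 of proline breakdown (log2 difference -1.23), Aldh16a1 (-1.15), Akr1e1 (-1.06), Aldh6a1 of valine breakdown (-1.01), Akr1b10 (-0.81), Akr7a5 (-0.73), Aldh3b1 (-0.63), Akr1c12 (-0.48), Akr1c18 (-0.45) and Akr1c14 (-0.31). Of these 10 genes Akr1c18 had the highest mean, at 10.6 ± 1.74 FPKM in experimental cells and 14.9 ± 2.16 in control cells (SD, n = 3 each). Aldh3b1 passed the filter through the control libraries alone, where it had just over 1 FPKM (at most 1.06). In the other 6 libraries it had at most 0.46 FPKM. That it was tested and called is therefore tied to the filter and is not read as support. Its call is included in the counts against control cells for the 13 tested genes of these families and for the wider list. Akr1c12 lay near the filter limit, with 0.30, 1.06 and 0.30 FPKM in experimental libraries and 0.97, 1.16 and 1.20 in control libraries, which overlap. Aldh6a1 had 0.59 to 0.71 FPKM in experimental libraries and passed the filter through the control libraries and intervention library 1. Akr1c13 missed the threshold (-0.04, limma adjusted p = 0.682). In intervention against control cells 2 of the 13 were called higher and 7 lower, against 24.1% and 41.1% of all tested entries. In intervention against experimental cells 5 were called higher and 0 lower, against 15.9% and 3.6%.

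In intervention against experimental cells, 15 of the 34 tested genes of the list were called higher and 0 lower by limma. Of all tested entries, 15.9% and 3.6% were. An unadjusted limma p under 0.05 was reached by 23 of the 34, against 4550 of the 11974 tested entries. The median log2 difference was 0.21, against 0.10 over all tested entries. With median-ratio scaling, as with quantile normalization, the split was 3 higher and 1 lower. The largest differences were those of Dcxr, a carbonyl reductase of xylulose (0.45, limma adjusted p = 0.0317), Akr1e1 (0.44, limma adjusted p = 0.0273), Akr1b10 (0.43, limma adjusted p = 0.0161) and Akr1c14 (0.39, limma adjusted p = 0.0247). Without experimental replicate 1, experimental replicate 3 or intervention replicate 1 limma called 0 of the 34. In these fits 21, 18 and 18 of the 34 had an unadjusted p under 0.05. Of the 11974 tested entries, 3355, 3375 and 3161 did. Sord, which follows Akr1b3 in the sorbitol pathway, averaged 80.8 ± 3.71 FPKM in intervention cells, 71.0 ± 2.86 in experimental cells and 77.2 ± 0.98 in control cells (SD, n = 3 each). Its order thus differed from that of Akr1b3.

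**Figure D5:**
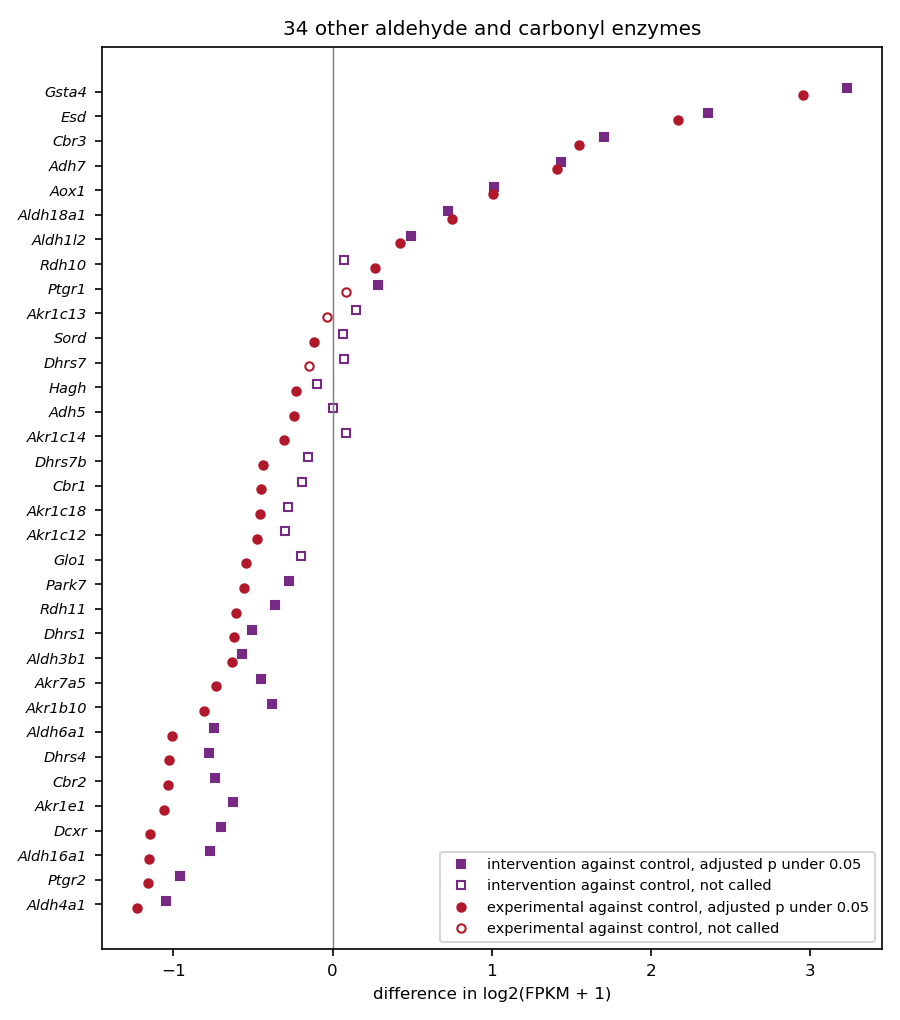
Difference in log2(FPKM + 1) of the 34 tested enzymes outside the 9 genes, intervention against control (squares) and experimental against control (circles), from limma, filled where the adjusted p was under 0.05. Gsta4, Esd, Cbr3 and Adh7 lie highest in both, from 1.41 to 3.23. In experimental against control cells 23 of the 34 were called lower, against 50.5% of all tested entries. Among the 23, Aldh3b1 passed the filter through the control libraries alone.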

How the data were processed

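RNA of HT22 cells was measured in 9 libraries. The labels' protocols name a Qiagen RNeasy kit for extraction and SMARTer mRNA-Seq chemistry for the libraries. The authors deposited FPKM values per gene and library, written with 2 decimals, and the submitters' processing notes name the build mm10. Aligner, counter, annotation and strand setting were not given in the sources used here. Whole reads could not be recovered: 892 (11.1%) of the 8073 nonzero values in genes shorter than 200 nt were smaller than a single read would give in a library of 200 M reads. No count test was run, depth is unknown, and precision was taken from the replicates alone.

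From the deposited FPKM, log2(FPKM + 1) was computed. Entries with at least 1 FPKM in at least 3 of the 9 libraries were tested (11974) in limma 3.58.1 under R 4.3.3, using lmFit and contrasts.fit and then eBayes with its trend option. The 3 groups were fitted together without covariates. Tests were 2-sided, and a call needed an adjusted p under 0.05 after Benjamini-Hochberg correction over all tested entries of that comparison. The comparisons share groups: the experimental libraries serve in 2 of the 3, as do the intervention and the control libraries. The script was tested on simulated data. Between libraries of 1 group the correlation across genes, which are not independent replicates, was 0.990 to 0.994, and no 2 libraries were identical.

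The members and lists were chosen with earlier results of these data known. Named genes are the 9 members, the 4 other list genes with the largest called differences per comparison, all tested dehydrogenases and reductases of the list, and the 2 nearest profiles per member. Akr1b3's copies, Phax, Sord and the marker genes stand outside that rule and were named for their sequence, place, pathway or cell type. Positions and coding sequences came from GENCODE M21 on mm10, promoters from RefSeq. The alternatives were another pseudocount, other filters, median-ratio, TPM and quantile scaling, only the 6 libraries compared, no trend, a replicate block, and leaving out each library.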

Additional observations from a re-analysis of the deposited data

How the results depend on the processing

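Depth is unknown, so precision rests on 3 libraries per group. Under every alternative run, the calls of Akr1b3, Aldh2, Aldh9a1 and Aldh7a1 against control kept their direction and side of the threshold. This held in experimental and in intervention cells. Aldh7a1 was not tested at a mean FPKM of at least 5. The calls of Aldh3a1 against control also kept both. They are tied to the filter, which Aldh3a1 passed through the intervention and experimental libraries alone, and are not read as support. Direction and side were kept by 140 of 144 values over members and alternatives for experimental against control. The numbers were 135 of 144 for intervention against control and 95 of 144 for intervention against experimental. The exceptions against control were Aldh3a2, Akr1a1 and Akr1b8. Akr1b8 changed sign with median-ratio scaling, to 0.0095 for experimental against control and 0.13 for intervention against control, where its -0.0087 also became 0.0087 without intervention replicate 1 and 0.0038 without intervention replicate 2 (range leaving out 1 library at a time, -0.039 to 0.0087). For intervention against experimental, where neither was called, Aldh2 became -0.063 with median-ratio scaling and -0.032 with quantile normalization, and Akr1a1 became -0.050 with median-ratio scaling. The median of all tested entries for experimental against control was -0.21 as deposited, -0.30 with TPM scaling and -0.01 with quantile normalization. With median-ratio scaling 4321 entries were called higher and 4399 lower for experimental against control, against 2809 and 6047 as deposited; for intervention against control the numbers were 3999 and 3787, against 2890 and 4926, and for intervention against experimental 645 and 792, against 1906 and 431. With quantile normalization they were 4172 and 4432, 3798 and 3913, and 451 and 587 in the same order. Requiring a mean FPKM of at least 5 left 7361 entries to test. Of these, 5702 were called for experimental against control and 5129 for intervention against control. Of the 21 other enzymes left to test, 18 and 14 were called in the same order.

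Intervention against experimental was the comparison that moved most. As deposited, limma called 2337 entries, 4 members and 15 other enzymes. No filter on low values gave 358, 1 and 1, median-ratio scaling 1437, 1 and 4, and quantile normalization 1038, 0 and 4. With quantile normalization 3 members had an unadjusted limma p under 0.05, against 3415 of the 11974 tested entries. The 1 member with median-ratio scaling was Akr1b3, lower in intervention cells. Fitting the 6 libraries alone called 1 member. Leaving out 1 library at a time gave 1 to 2571 entries, 0 to 5 members and 0 to 18 other enzymes. Entries called were 1 when experimental replicate 1 was left out, 4 for experimental replicate 3, 6 for intervention replicate 1 and 939 for intervention replicate 3; leaving out control replicate 1 gave 2 members. The cause was not tested.

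The replicate block gave 1268 entries, 1 member and 7 other enzymes for intervention against experimental. Deviations from the group means were correlated between libraries of different groups. Experimental and control libraries of the same number gave -0.05, 0.11 and 0.11, and differently numbered ones -0.14 to 0.04. Intervention and experimental libraries gave -0.03, -0.18 and -0.01 when same-numbered, and -0.13 to 0.15 otherwise. Intervention and control libraries gave 0.05, -0.08 and -0.08 when same-numbered, and -0.07 to 0.14 otherwise. Deviations within so small a group depend on each other, so these values cannot decide whether same-numbered libraries belong together.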
